A study of Mus musculus with 3 samples.

Results

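The genes described here encode subunits of the mitochondrial respiratory chain that are carried in the nucleus. They were chosen by symbol, as rows that begin with Ndufa, Ndufb, Ndufc, Ndufs, Ndufv, Sdha to Sdhd, Uqcr, Cox4i, Cox5 to Cox8 or Atp5, without assembly factors and pseudogenes. The rule found 46 of 9781 gene rows, on 10 chromosomes. By known role, 22 belong to complex I, 2 to complex II, 3 to complex III, 10 to complex IV (with *Ndufa4* and its paralog *Ndufa4l2* counted there) and 8 to complex V, the ATP synthase. *Atp5sl* met the rule by its name alone and is not a known ATP synthase subunit. The rows held cover only part of the genome, so other subunits were not analysed here.

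The respiratory chain passes electrons from NADH (through complex I) and succinate (through complex II) to complex III and then to complex IV, cytochrome c oxidase, where oxygen is consumed. Complexes I, III and IV pump protons across the inner mitochondrial membrane, and complex V uses the gradient to make ATP. Most subunits are made in every tissue, whereas several subunits of complex IV exist as paralogs that are known to be restricted to muscle, testis or cells exposed to low oxygen.

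The study profiled single cells from 3 mouse samples, with 1 library for each, to describe the cells of the developing prostate. They were the male urogenital sinus of E18.5 embryos and the prostate of P14 and of P35 mice (days after birth). The study states a mixed background of C57BL/6 and 129S1/SvImJ for its mice, and the genotype of the mice behind these libraries is not given in the sources used here. Cells carry barcode endings of 1, 2 or 3, and no label ties an ending to an age. The cells are therefore called barcode sets 1, 2 and 3, each set is described by itself, and no comparison between ages is made. With 1 library per group there is no test. Every interval is a 95% interval for counting error only.

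Set 1 held 766 cells, set 2 held 5350 and set 3 held 8360, with median depths of 19357, 1738 and 1801 UMIs (unique molecular identifiers, counted RNA molecules) per cell. Rates are in CPM, UMIs of a gene per 1000000 UMIs of a class in a set. Clusters built without the 46 genes were named from marker lists as fibroblast-like, epithelium-like, smooth muscle-like, endothelium-like, pericyte-like, leukocyte-like, glia-like and neuron-like, while cluster 9 (mitotic genes) and cluster 10 (led by *Wfdc15b*, *Folr1* and *Sptssb*, with *Upk1a* and *Ivl* among its top 10 genes) stayed unnamed. In set 1 the smooth muscle label was weak. The 7 smooth muscle markers summed to 3191 CPM in those 136 cells, below their 6250 CPM of fibroblast markers, against 27367 and 26305 CPM of smooth muscle markers in sets 2 and 3. Besides *Actg2*, *Myl9* and *Des*, that cluster was led by the striated muscle genes *Tnnt2*, *Tnnc2*, *Tnnt1* and *Actc1*. The classes with 25 cells or fewer were pericyte-like (9) and glia-like (21) cells in set 1, neuron-like cells in sets 2 (15) and 3 (19), and leukocyte-like cells in set 2 (25). The last carried 7136 CPM of smooth muscle markers and 3330 of epithelial markers beside 4257 of leukocyte markers. Markers of other classes were also high in glia-like cells, with 6239 and 5261 CPM of fibroblast markers in sets 2 and 3 beside 5015 and 5644 of glia markers, and in endothelium-like cells of set 2, with 4259 of smooth muscle and 4223 of endothelial markers. In pericyte-like cells they exceeded the pericyte markers in sets 1 and 2 for fibroblast markers and in every set for smooth muscle markers, with values given beside their paralogs. The part of these in the results was not tested.

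Nuclear respiratory chain genes are often found to carry promoter motifs of NRF1 and of ETS factors such as GABP. RefSeq promoters (GRCm38.p6, the assembly of mm10) were matched for 40 of the 46 genes, and the 250 bases before each start were searched on both strands. Among the others were *Cox4i2*, *Ndufa4l2*, *Ndufs1*, *Sdhc* and *Uqcrc2*. The NRF1 motif (GCGC, any base, T and again GCGC, without gaps) was present for 6 of the 40 genes (15%), against 4.23% of all 27025 genes with a promoter entry. The ETS motif CCGGAAG was present for 8 genes (20%), against 7.83% of all genes, and a YY1 motif, AAGATGGC, for 1 gene (2.5%) against 1.83%. In all, 26 of the 40 genes held none of the 3 motifs in this window. The sequences shown are *Cox6a1*, which held NRF1 and ETS matches, *Atp5k*, with a single NRF1 match 50 to 41 bases before its start, and *Ndufa4*, which held none and is the complex IV gene with the most UMIs. Capitals mark the matches, and each sequence is read 5′ to 3′ on the minus strand.
Cox6a1, chr5:115348959-115349208: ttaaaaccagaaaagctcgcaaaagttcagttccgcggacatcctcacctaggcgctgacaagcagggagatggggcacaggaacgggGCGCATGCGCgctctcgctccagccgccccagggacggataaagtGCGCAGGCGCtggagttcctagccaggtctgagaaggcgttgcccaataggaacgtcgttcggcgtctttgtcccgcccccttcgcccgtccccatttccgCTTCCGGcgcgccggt
Atp5k, chr5:108434400-108434649: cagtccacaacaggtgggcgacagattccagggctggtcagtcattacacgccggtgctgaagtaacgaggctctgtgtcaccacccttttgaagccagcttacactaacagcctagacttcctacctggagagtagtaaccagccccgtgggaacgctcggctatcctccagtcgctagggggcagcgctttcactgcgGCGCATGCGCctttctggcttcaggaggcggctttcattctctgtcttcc
Ndufa4, chr6:11907451-11907700: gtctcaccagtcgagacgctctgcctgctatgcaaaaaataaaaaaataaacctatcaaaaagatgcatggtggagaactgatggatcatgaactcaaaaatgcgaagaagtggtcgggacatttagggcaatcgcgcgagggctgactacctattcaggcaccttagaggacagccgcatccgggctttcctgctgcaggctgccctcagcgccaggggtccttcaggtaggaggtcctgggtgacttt
In *Cox6a1* the NRF1 matches lay 162 to 153 and 117 to 108 bases before the start, and the ETS match 16 to 10 bases before it. None of these motifs overlapped another. A match here is a description of letters and not of binding.

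Coverage differed widely among the 46 genes. All had UMIs in every barcode set, 36 were among the 1000 rows with most UMIs, and their rates over all cells ran from 0.313 to 690 CPM, with a median of 131. These are 3′ end counts, which do not scale with transcript length. The leading genes were *Atp5b* (catalytic beta subunit of complex V) at 690 CPM, *Uqcrh* (hinge protein of complex III) at 679, *Ndufa4* at 517, *Atp5d* (delta subunit of complex V) at 494 and *Atp5f1* (peripheral stalk of complex V) at 394. These 5 genes held 32.5% of all UMIs of the group. Reads shared with near-identical copies elsewhere in the genome could not be told apart, and 8 of the 46 genes overlap another protein-coding gene.

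Summed over the 46 genes, the respiratory chain took the smallest share of all UMIs in fibroblast-like cells in every set and the largest in neuron-like cells. Fibroblast-like cells gave 0.791% in set 1, 0.512% in set 2 and 0.485% in set 3. Neuron-like cells gave 1.39%, 1.34% and 1.56%. Between them lay smooth muscle-like cells at 0.975%, 1.07% and 1.17%, which ranked next to neuron-like cells in sets 2 and 3, and epithelium-like cells at 0.921%, 0.745% and 0.828%. In set 1 the classes other than fibroblast-like and neuron-like lay within 0.921% and 1.19%, and smooth muscle-like and endothelium-like cells (0.974%) had overlapping intervals.

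**Figure D1:**
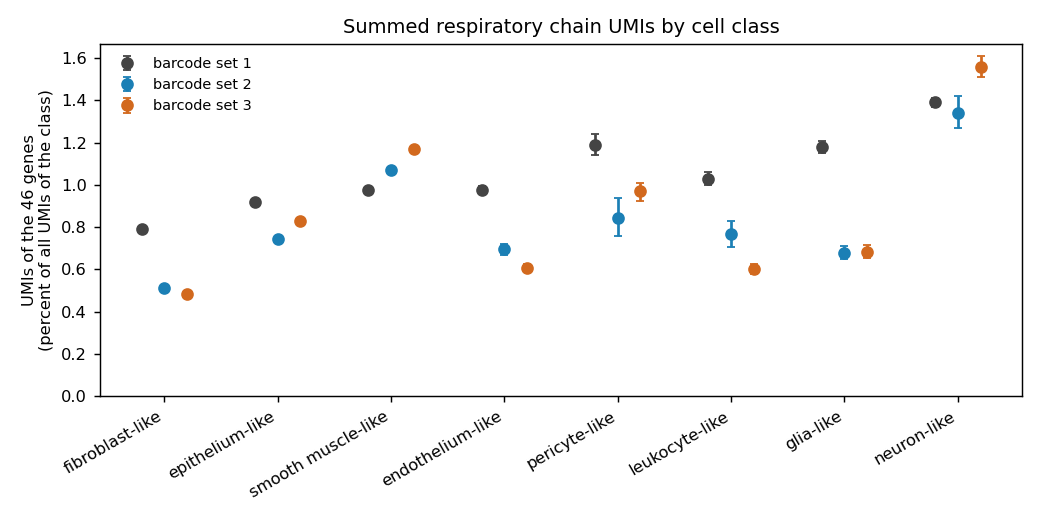
UMIs of the 46 respiratory chain genes as a percent of all UMIs (vertical axis) for the 8 named cell classes (horizontal axis). Points are barcode sets and bars are 95% Poisson intervals for counting error. Fibroblast-like cells are lowest in each set (0.485% to 0.791%) and neuron-like cells highest (1.34% to 1.56%).

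The remaining classes also lay between these extremes. Endothelium-like cells gave 0.974%, 0.695% and 0.607% in sets 1, 2 and 3, leukocyte-like cells 1.03%, 0.767% and 0.604%, and glia-like cells 1.18%, 0.680% and 0.683%. Pericyte-like cells gave 1.19%, 0.845% and 0.969%. In sets 2 and 3 the intervals of leukocyte-like and endothelium-like cells overlapped, so their order is not resolved. Depth differed between classes as well as sets. In set 3 the median was 1328 UMIs per cell in fibroblast-like, 1602 in smooth muscle-like, 3556 in epithelium-like and 12948 in neuron-like cells, and depth alternatives for the main comparisons are given in the closing section.

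The first main comparison asked whether epithelium-like cells, the class that forms the prostatic glands, differed from the fibroblast-like stroma. The sum was higher in epithelium-like cells by 0.22 on the log2 scale in set 1 (interval 0.20 to 0.24), 0.54 in set 2 (0.52 to 0.57) and 0.77 in set 3 (0.75 to 0.80), which are 1.16, 1.46 and 1.71-fold. Of 42 genes with at least 20 UMIs in both classes together in every set, 0 were at least 2-fold higher in every set, where 8.10% of all genes were. *Cox6b2* alone was at least 2-fold lower in every set (background 11.4%). A second rule counted genes whose interval lay on the same side of 0 in every set: 23 of the 42 lay above (background 15.7%) and 1 lay below (background 20.1%). The median log2 ratio of the group was 0.17, 0.54 and 0.71 in sets 1, 2 and 3, against -0.14, -0.03 and 0.19 over all genes measured in each set. Leaving out set 1, 3 genes were at least 2-fold higher (*Sdhc*, *Atp5c1* and *Uqcr11*, background 12.9%) and *Cox6b2* was lower (background 14.4%), a count added after seeing the data. The difference of the sum was smaller at a finer clustering (0.13 in set 2 and 0.37 in set 3) and with at least 500 genes per cell (0.28 and 0.52).

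The 3 highest median ratios over the sets belonged to subunits of different complexes. *Uqcr11*, a small subunit of complex III (chr10:80402997-80406821), had rates of 200, 134 and 196 CPM in epithelium-like cells of sets 1, 2 and 3, where fibroblast-like cells had 111, 51.8 and 54.0. On the log2 scale its ratio was 0.85 (0.71 to 0.99), 1.37 (1.11 to 1.64) and 1.86 (1.66 to 2.07). *Atp5c1*, the gamma subunit of complex V, stood at 400, 304 and 326 against 336, 146 and 134 CPM, with log2 ratios of 0.25, 1.06 and 1.28. *Sdhc*, a membrane anchor of complex II, stood at 82.4, 67.1 and 76.9 against 76.3, 31.9 and 36.2 CPM, and its interval in set 1 included 0 (log2 ratio 0.11, -0.08 to 0.30). In sets 2 and 3 *Uqcr11* was thus well past 2-fold, while *Atp5c1* and *Sdhc* lay nearer to it. Near the low end was *Ndufa5*, an accessory subunit of complex I, whose intervals included 0 in sets 1 and 2 (log2 ratios -0.04 and 0.03) and whose ratio was 0.39 in set 3. At a finer clustering its ratio in set 3 was -0.18.

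The epithelial clusters were not alike. Cluster 4, led by *Clca1* and *Cldn3*, gave a sum of 0.936%, 0.824% and 0.921% of UMIs in sets 1, 2 and 3. Cluster 5, led by *Lamb3* and *Sfn*, gave 0.871%, 0.702% and 0.729%. Cluster 3, led by *Lgals7* and *Serpinb5*, had 2 cells in set 1 and gave 0.659% and 0.702% in sets 2 and 3. Set 1 cells were mostly of cluster 4 (83 of 119), and the proportions of clusters 3, 4 and 5 within the epithelium-like class differed between sets. Cluster 4 was also the deepest, with medians of 6876 and 6672 UMIs per cell in sets 2 and 3 against 2039.5 and 2256 in cluster 3.

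The comparison of smooth muscle-like with fibroblast-like cells, the main stromal classes, gave the larger difference in sets 2 and 3. The sum was higher in smooth muscle-like cells by 0.30 on the log2 scale in set 1 (0.28 to 0.32), 1.06 in set 2 (1.03 to 1.09) and 1.27 in set 3 (1.24 to 1.29), which are 1.23, 2.08 and 2.41-fold. Per cell, the middle 50% of smooth muscle-like cells spanned 0.822% to 1.33% in set 2 and 0.829% to 1.39% in set 3, above the same range in fibroblast-like cells (0.332% to 0.635% and 0.309% to 0.611%), whereas in set 1 these ranges overlapped (0.769% to 1.10% against 0.647% to 0.922%). Of 43 genes measured in every set, 0 were at least 2-fold higher in all 3 sets (background 1.14%) and 0 lower (background 2.90%). The count higher was 16 without integration, where set 1 had 5 smooth muscle-like cells (5 genes with sums under 3 UMIs left as observed), and 7 with each cell classed by its own markers. By the interval rule 33 of the 43 lay above 0 in every set (background 7.13%) and 0 below (background 9.03%). The median log2 ratio of the group was 0.29, 1.05 and 1.31, against 0.09, -0.12 and -0.07 over all genes.

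In sets 2 and 3 alone, where the smooth muscle markers were strong, 24 of 43 genes were at least 2-fold higher in smooth muscle-like cells (background 6.45%) and 0 were lower (background 6.84%). This count was chosen after the set 1 markers were seen. With cells of 500 or more genes only, clustered anew, the ratio of the sum was 0.56 in set 2 and 0.80 in set 3, and at a finer clustering, which left a fibroblast-marker cluster unnamed, it was 0.66 and 0.80. The cause was not tested.

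By complex, the smooth muscle-like ratio was 1.04 and 1.18 for complex I in sets 2 and 3, 1.19 and 1.22 for complex II, 0.95 and 1.01 for complex III, 1.32 and 1.66 for complex IV, and 0.96 and 1.25 for complex V. The interval of complex IV lay above that of the whole group in both sets (1.25 to 1.39 and 1.60 to 1.72), and no other complex had one above it. Without *Ndufa4*, complex IV gave 0.95 (0.87 to 1.03) in set 2 and 1.21 (1.14 to 1.28) in set 3, not above the whole group, a value added after seeing the data. Below the whole group lay the intervals of complex V in set 2 (0.91 to 1.01) and of complexes I (1.13 to 1.22) and III (0.94 to 1.08) in set 3. In set 1 the complexes lay between 0.25 and 0.44.

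Within complex IV the highest ratio was that of *Ndufa4*. This gene, once assigned to complex I and now known as a complex IV subunit (chr6:11900372-11907450), stood at 571, 989 and 1098 CPM in smooth muscle-like cells of sets 1, 2 and 3, where fibroblast-like cells had 326, 243 and 183. The ratio on the log2 scale was 0.81 (0.71 to 0.91), 2.03 (1.90 to 2.15) and 2.58 (2.47 to 2.70). After thinning each cell to 900 UMIs, 58.8% of 1567 smooth muscle-like cells in set 2 and 56.0% of 1862 in set 3 had an *Ndufa4* UMI, against 17.4% and 13.9% of fibroblast-like cells. *Uqcr11* was the other leader, at 179, 224 and 287 CPM in smooth muscle-like cells, with log2 ratios of 0.69, 2.11 and 2.41. *Atp5c1*, at 446, 449 and 430 CPM, followed with 0.41, 1.62 and 1.68. All 3 genes were higher in smooth muscle-like cells in every set, with the smallest ratios in set 1. Without integration the set 1 ratio of *Ndufa4* was -0.01, over 3 UMIs in 5 smooth muscle-like cells, and with at least 500 genes per cell its ratio was 0.92 in set 2 and 1.74 in set 3.

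The other 4 of the 5 leading genes gave smaller ratios than *Ndufa4* in every set. *Atp5b* stood at 688, 876 and 911 CPM in smooth muscle-like cells and at 574, 475 and 363 in fibroblast-like cells, with log2 ratios of 0.26, 0.88 and 1.33. *Uqcrh* stood at 722, 737 and 891 against 625, 448 and 542, with log2 ratios of 0.21, 0.72 and 0.72. For *Atp5d* the ratio was -0.03 in set 1 with an interval that included 0, and 1.03 and 1.05 in sets 2 and 3. *Atp5f1* gave 0.35, 0.36 and 0.78. At the low end, *Cox4i2* stood at 13.7, 4.90 and 3.35 CPM in smooth muscle-like cells against 27.0, 3.89 and 6.91, with ratios of -0.98, 0.33 and -1.04, while *Cox6b2* (-0.18, 0.08 and 0.06) and *Atp5sl* (-0.07, -0.01 and 0.15) had intervals that included 0 in every set. The sign for *Cox4i2* was not stable. Its ratio was 0.87 in set 1 when thinned (4 and 5 UMIs). In set 3 it was 0.44 at a finer clustering and 0.28 with at least 500 genes per cell.

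**Figure D2:**
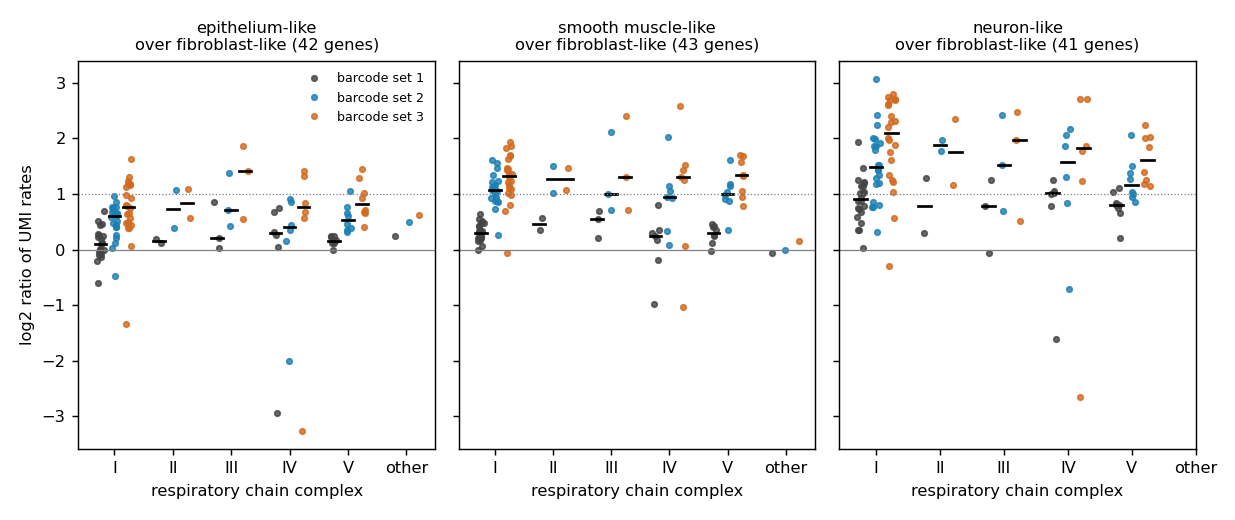
Log2 ratio of UMI rates over fibroblast-like cells (vertical axis) for each measured gene, grouped by respiratory chain complex (horizontal axis), in epithelium-like, smooth muscle-like and neuron-like cells. Points are genes coloured by barcode set, black bars are medians, and the dotted line marks 2-fold. Set 1 medians are lower than those of sets 2 and 3 for each complex in each panel, and the low points of complex IV in the left and right panels are *Cox6b2*.

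Neuron-like cells (carrying *Stmn2*, *Snap25* and *Dbh*) were few, at 32, 15 and 19 cells, and had the highest sums. Over fibroblast-like cells the log2 ratio of the sum was 0.81 in set 1 (0.79 to 0.84), 1.39 in set 2 (1.31 to 1.47) and 1.69 in set 3 (1.64 to 1.74). Of 41 genes measured, 17 were at least 2-fold higher in every set (background 10.6%) and 0 lower (background 7.19%), and by the interval rule 33 lay above 0 (background 13.5%) and 0 below (background 9.46%). The median log2 ratio of the group was 0.85, 1.44 and 1.89, against 0.08, 0.56 and 0.42 over all genes. Sums under 3 UMIs were set to 3, which raises these all-gene values in so small a class. With neuron-like sums left as observed the all-gene medians were 0.08, -0.36 and -0.14, those of the group were still 0.85, 1.44 and 1.89, and the 17 genes stood beside 9.84% of all genes, an alternative added after seeing the data. The 17 genes included *Ndufa4*, at 773, 1023 and 1210 CPM, and *Cox6b1*, the widely made partner of *Cox6b2*, at 668, 686 and 770 CPM against 321, 152 and 118 in fibroblast-like cells. Complex III had the lowest ratio of the complexes in every set, at 0.33 (0.24 to 0.42), 1.09 (0.81 to 1.35) and 0.97 (0.79 to 1.15), and its intervals in sets 1 and 3 lay below those of the sum. It held 7.98%, 9.17% and 8.13% of the group's UMIs in neuron-like cells, where fibroblast-like cells gave 11.1%, 11.3% and 13.4%. *Uqcrh* stood at 596, 725 and 770 CPM in neuron-like cells, with log2 ratios of -0.07, 0.69 and 0.51, while *Uqcr11* in the same complex had ratios of 1.25, 2.43 and 2.47.

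In the other classes few single genes passed the fold rule. Over fibroblast-like cells, pericyte-like cells had 3 genes at least 2-fold higher in every set (*Sdhc*, *Uqcr11* and *Ndufa4l2*, background 4.56%), glia-like cells had 1 (*Uqcr11*, background 3.97%), endothelium-like cells had 0 (background 5.41%) and leukocyte-like cells 0 (background 4.94%). *Sdhc* had 31, 1 and 19 UMIs in pericyte-like cells and passed only because its single UMI of set 2 (24.6 CPM, where fibroblast-like cells had 31.9) was set to 3. With sums of the higher class left as observed, pericyte-like cells had 2 genes, *Uqcr11* and *Ndufa4l2*, where 2.14% of all genes passed, and the share of all genes was 3.87% in leukocyte-like cells. *Cox6b2* alone was at least 2-fold lower in endothelium-like cells (background 6.48%) and in glia-like cells (background 3.70%), and 0 genes were lower in pericyte-like (background 0.861%) or leukocyte-like cells (background 4.90%). By the interval rule 12 of 42 genes lay above 0 in endothelium-like cells (background 10.3%), 10 of 41 in glia-like cells (background 6.16%), 4 of 42 in pericyte-like cells (background 2.09%) and 3 of 41 in leukocyte-like cells (background 4.10%). *Cox6b2* was the 1 gene below 0 in endothelium-like cells (background 8.53%) and in glia-like cells (background 4.86%), with 0 below in pericyte-like (background 0.861%) and leukocyte-like cells (background 5.15%).

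**Figure D3:**
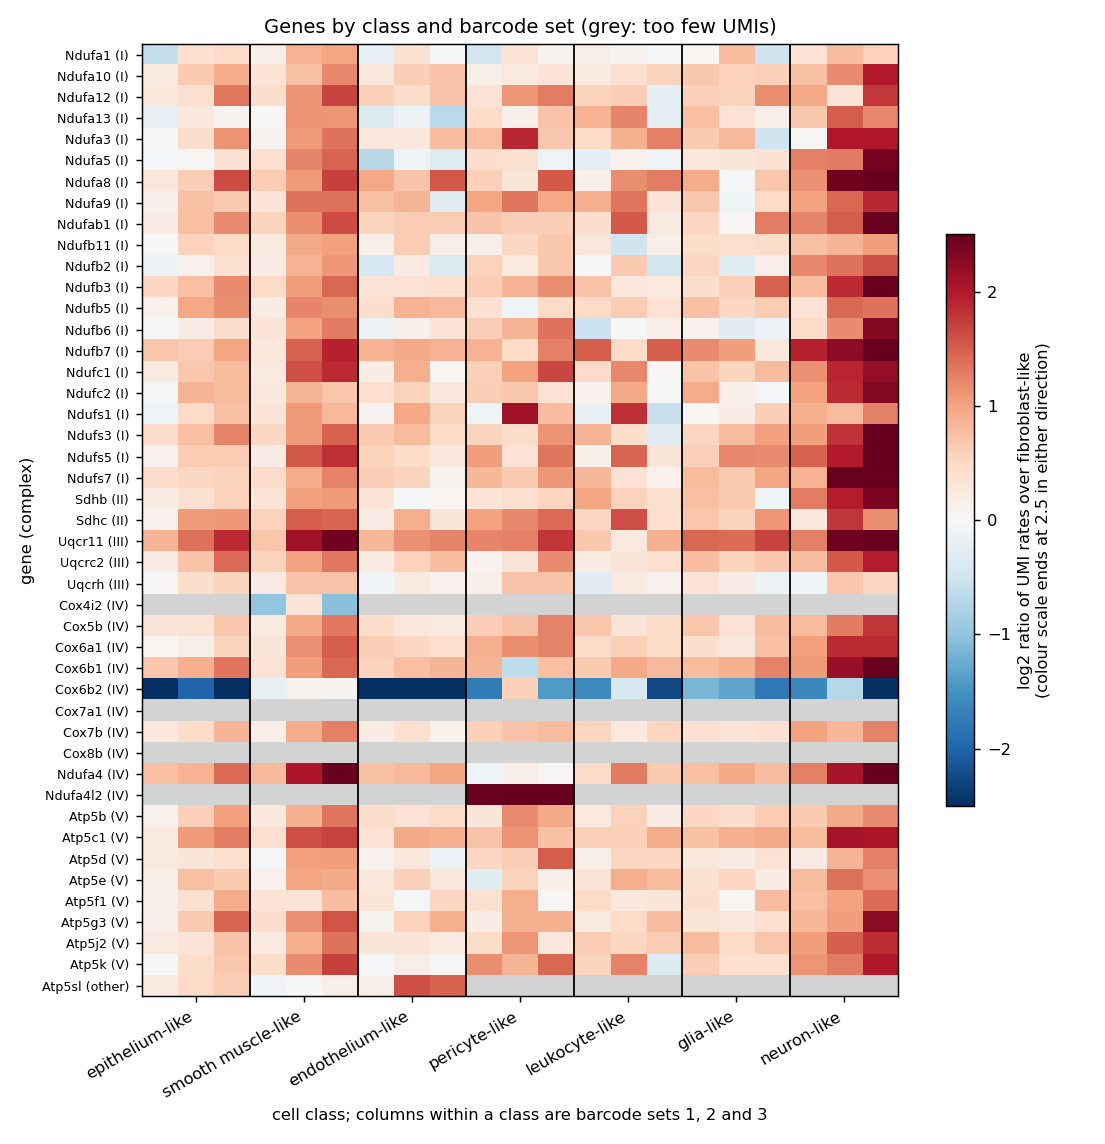
Log2 ratio of UMI rates over fibroblast-like cells for single genes (rows, with the complex in parentheses) in 7 cell classes (columns, with barcode sets 1, 2 and 3 side by side in each). Red is higher, blue lower and grey under 20 UMIs in both classes together in at least 1 set, and sums under 3 UMIs count as 3; the smooth muscle-like and neuron-like columns of sets 2 and 3 are red for nearly all genes, *Cox6b2* is blue in most classes, and *Ndufa4l2* has enough UMIs in every set only in the pericyte-like column.

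Pericyte-like cells stood apart in the paralogs of complex IV. *Ndufa4l2*, a paralog of *Ndufa4* known as a target of hypoxia signalling (chr10:127509274-127517154), stood at 769 CPM in set 1 (155 UMIs, interval 653 to 900), 295 in set 2 (12 UMIs) and 607 in set 3 (120 UMIs). In smooth muscle-like cells it stood at 7.61, 1.63 and 1.12 CPM (20, 5 and 4 UMIs). The log2 ratio of pericyte-like over smooth muscle-like cells was 6.66 (5.98 to 7.41), 7.50 (5.89 to 9.35) and 9.09 (7.69 to 10.98). *Cox4i2*, an isoform of complex IV subunit 4 known from oxygen-responsive cells (chr2:152753916-152765039), stood at 437, 123 and 207 CPM in pericyte-like cells (88, 5 and 41 UMIs), against 13.7, 4.90 and 3.35 in smooth muscle-like cells, with log2 ratios of 4.99, 4.65 and 5.95. When cells were classed one by one from markers, the set 1 ratio of *Ndufa4l2* was 1.41 and that of *Cox4i2* 3.08. Both genes were among the 10 genes with the highest fold in that cluster although neither was used for clustering.

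*Ndufa4* itself was lower in pericyte-like than in smooth muscle-like cells. It stood at 303, 270 and 187 CPM in pericyte-like cells, which did not differ beyond counting error from the 326, 243 and 183 of fibroblast-like cells (log2 ratios of -0.11, 0.15 and 0.03, with intervals that included 0). The log2 ratio over smooth muscle-like cells was -0.92 (-1.31 to -0.55), -1.87 (-2.88 to -1.03) and -2.55 (-3.06 to -2.09). At 900 UMIs per cell it was -1.03 in set 1, over 2 UMIs in 9 pericyte-like cells (-0.45 with these set to 3), and it was -0.50 in set 2 with at least 500 genes per cell. Over smooth muscle-like cells, *Cox4i2* was the only measured gene of the group at least 2-fold higher in every set (1 of 42, background 3.93%, or 2.26% with pericyte-like sums left as observed, with *Ndufa4l2* short of 20 UMIs in set 2), and 0 were lower (background 0.542%). By the interval rule *Cox4i2* alone lay above 0 (background 2.26%) and *Ndufa4* alone below 0 (background 0.518%). Of the UMIs of both paralogs together, *Ndufa4l2* made up 71.8% (65.3 to 77.7) in pericyte-like cells of set 1, 52.2% (30.6 to 73.2) in set 2 and 76.4% (69.0 to 82.8) in set 3. In smooth muscle-like cells it made up 1.31%, 0.165% and 0.102%. At 900 UMIs per cell, 33.3% of 9, 31.6% of 19 and 35.9% of 103 pericyte-like cells had an *Ndufa4l2* UMI, whereas 0 of 134 smooth muscle-like cells in set 1 had one (which allows up to 2.24% of cells with a UMI at that depth, beside 7 of 136 at full depth), and 0.128% of 1567 and 0.215% of 1862 had one in sets 2 and 3. Pericyte-like cells carried 6161, 7149 and 11991 CPM of smooth muscle markers and 4544, 7861 and 2682 of fibroblast markers beside 2723, 2358 and 3329 of pericyte markers, and the part of mixed cells in these values was not tested.

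*Ndufa4l2* was also seen in set 1 outside pericyte-like cells. It stood at 185 CPM in epithelium-like cells of set 1 (1051 UMIs, interval 174 to 197) and at 196 in neuron-like cells (in 12 of 32 cells). It stood at 60.7 in glia-like cells (35 UMIs in 3 of 21 cells) and at 30.3 in fibroblast-like cells (9.53 in cluster 1 and 40.5 in cluster 2). It had 0 UMIs in endothelium-like, leukocyte-like and myogenic cells of that set. In epithelium-like cells of sets 2 and 3 it stood at 1.26 and 2.28 CPM (11 and 38 UMIs), below fibroblast-like cells in set 3 (11.2). The epithelium-like over fibroblast-like log2 ratio was 2.61 (2.38 to 2.85) in set 1, -1.30 (-2.75 to 0.22) in set 2, where the gene had under 20 UMIs, and -2.29 (-2.97 to -1.62) in set 3. In set 1, 77 of 119 epithelium-like cells had a UMI (64.7%), as had 7 of 136 smooth muscle-like cells (5.15%), at median depths of 44688 and 14783.5 UMIs. At 900 UMIs per cell the shares were 17.8% of 118 and 0 of 134. The UMIs came from cluster 4 (215 CPM, in 60 of 83 cells) and cluster 5 (87.1, in 17 of 34 cells), and the unnamed epithelial-marker cluster 10 had 2.34.

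*Cox6b2*, known as the testis isoform of complex IV subunit 6b (chr7:4751792-4753094), was higher in the main stromal classes than in epithelium-like cells. Fibroblast-like cells had 50.1, 48.7 and 81.3 CPM and smooth muscle-like cells 44.1, 51.6 and 84.9, which did not differ beyond their intervals. Epithelium-like cells had 6.51, 12.1 and 8.46. The epithelium-like over fibroblast-like log2 ratio was -2.94 (-3.48 to -2.45), -2.01 (-2.40 to -1.63) and -3.27 (-3.56 to -2.97), and -2.63 in set 1 at 900 UMIs per cell, over 1 and 16 UMIs (-1.04 with the single UMI set to 3). In neuron-like cells it had 18 UMIs in set 1 (16.5 CPM) and 0 in sets 2 and 3. Of the UMIs of *Cox6b1* and *Cox6b2* together, *Cox6b2* made up 13.5%, 24.3% and 40.9% in fibroblast-like cells, 9.63%, 14.1% and 21.1% in smooth muscle-like cells, and the shares of epithelium-like cells were 1.25%, 4.05% and 2.79%. The mitotic cluster 9, which carried stromal markers, had 17.1%, 35.9% and 30.8%, and its *Cox6b2* rates of 66.2, 158 and 138 CPM rested on 19, 60 and 20 UMIs. *Cox6b1* went the opposite way, at 513, 286 and 295 CPM in epithelium-like and 321, 152 and 118 in fibroblast-like cells.

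The muscle isoforms *Cox7a1* and *Cox8b* were close to the limit of detection. *Cox8b* had 20 UMIs and *Cox7a1* 80 UMIs over all cells. Their highest rates in a named class were 1.73 CPM for *Cox8b* (glia-like cells of set 1) and 24.6 for *Cox7a1* (pericyte-like cells of set 2). Each gene had only 3 UMIs in set 2, short of the 20 needed for a ratio in every set. With the cells set apart kept in, *Cox7a1* had 21 epithelium-like and 1 fibroblast-like UMIs in set 3 (log2 ratio 0.66, or 2.25 as observed). With cells classed one by one it had 19 and 2 in set 1 (2.54, or 3.12 as observed).

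**Figure D4:**
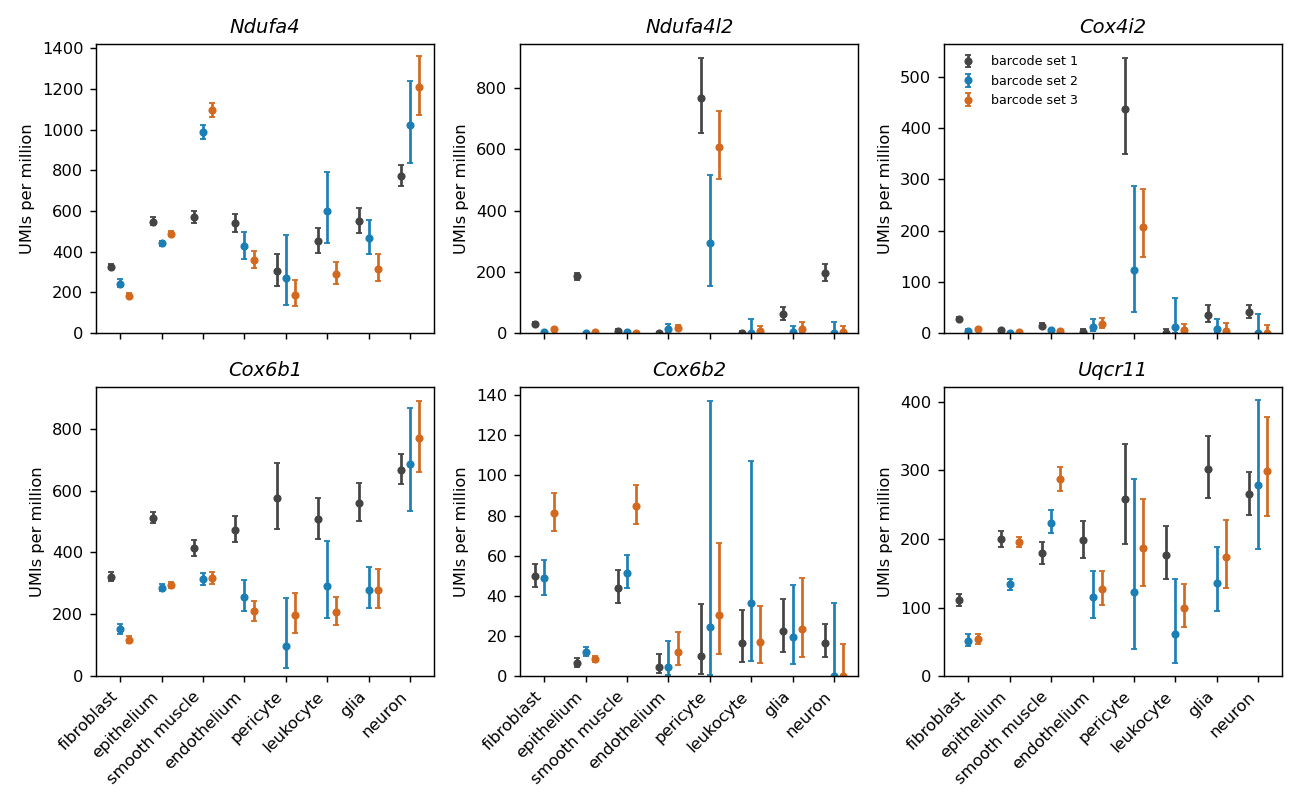
CPM (vertical axes, each from 0) of 6 respiratory chain genes in the 8 named cell classes (horizontal axis). Points are barcode sets and bars 95% Poisson intervals. *Ndufa4l2* and *Cox4i2* are highest in pericyte-like cells, where *Ndufa4* (187 to 303) is near its level in fibroblast-like cells (183 to 326), *Cox6b2* is highest in fibroblast-like and smooth muscle-like cells of set 3, and *Uqcr11* is lowest in fibroblast-like cells of each set.

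Most of the group varied together. Over 24 points (8 classes in 3 sets, points of a set sharing library and depth), 39 of 46 genes had a Pearson correlation of at least 0.5 with the sum of the other genes on the log2 scale, and the median was 0.75. *Cox5b* (0.96), *Cox6a1* (0.92), *Ndufc1* (0.92) and *Cox7b* (0.91) were the closest. The genes below 0 were *Cox6b2* (-0.44), *Atp5sl* (-0.14) and *Cox4i2* (-0.01), and *Cox7a1* (0.02), *Ndufa4l2* (0.07) and *Cox8b* (0.22) were among the others below 0.5. These values are descriptions, and for *Cox7a1*, *Cox8b* and *Atp5sl* they rest on few UMIs. The correlation was not computed for genes outside the group, so the count does not set the group apart from other genes.

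Other mitochondrial genes were read beside the group. Of 8 genes of the tricarboxylic acid cycle and pyruvate dehydrogenase, which feed the chain, 6 had intervals above 0 in every set in smooth muscle-like over fibroblast-like cells and 4 in epithelium-like over fibroblast-like cells, with medians of 1.07 and 0.77. *Suclg1*, of succinyl-CoA synthetase, stood at 120, 123 and 153 CPM in smooth muscle-like cells, above the 42.4 to 87.4 CPM of fibroblast-like cells, with log2 ratios of 0.46, 1.54 and 1.73. *Cs*, citrate synthase, stood at 96.3, 67.9 and 40.8 in epithelium-like and 70.5, 29.6 and 14.6 in fibroblast-like cells. Of 11 genes of glycolysis, 6 lay above 0 and 0 below in smooth muscle-like cells (median 0.44), whereas 2 lay above and 4 below in epithelium-like cells (median -0.06). Backgrounds for these counts are those given above for the same comparisons.

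Assembly factors and regulators were read in the same way. Of 19 assembly factors measured in the epithelial comparison, 2 lay above 0 and 1 below, with a median of 0.55, and *Bcs1l*, which assembles complex III, was at least 2-fold lower in every set (5.46, 3.67 and 3.84 against 10.9, 8.95 and 11.4 CPM). Of 17 measured in the smooth muscle comparison 1 lay above 0, with a median of 0.52. Among 7 biogenesis regulators measured in epithelium, *Ppargc1a*, a coactivator of mitochondrial gene expression, was the one at least 2-fold higher in every set, at 49.8, 11.8 and 26.4 CPM against 0.496, 0 and 1.06 in fibroblast-like cells, and the list's median was 0.03. In smooth muscle-like cells *Ppargc1a* stood at 1.90, 0.653 and 0.838 CPM, with too few UMIs to be measured over fibroblast-like cells. The 5 regulators measured in that comparison had a median of -0.41. The part of any regulator in the respiratory chain sums was not tested. The 5 carriers and shuttle genes had medians of 0.10 and 0.17 in the epithelial and smooth muscle comparisons. In neuron-like over fibroblast-like cells, where 10.6% of all genes were at least 2-fold higher in every set, 1 of 11 assembly factors (*Ndufaf6*), 1 of 5 carriers (*Vdac3*, an outer membrane channel) and 1 of 11 glycolysis genes (*Hk1*, hexokinase 1) were, with 0 of 8 genes of the tricarboxylic acid cycle list and 0 of 5 regulators. By the interval rule 3 of 11 assembly factors, 3 of 5 carriers and 6 of 11 glycolysis genes lay above 0 (background 13.5%). So did 3 of 8 genes of the tricarboxylic acid cycle list and 0 of 5 regulators, and 0 genes of any list lay below (background 9.46%). The medians were 1.19, 0.90, 1.13, 1.23 and -0.40 in that order, with sums under 3 UMIs set to 3. *Hk1* stood at 78.7, 219 and 145 CPM in neuron-like cells. *Hk2* was at least 2-fold lower in every set (background 7.19%), at 7.32, 19.9 and 4.28 CPM against 52.5, 78.2 and 179 in fibroblast-like cells. Its interval in set 2 included 0 (log2 ratio -1.39, -3.68 to 0.18). *Hk2* was also at least 2-fold lower in every set in endothelium-like and glia-like cells over fibroblast-like cells.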

How the data were processed

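The submitters' notes give Cell Ranger 3.1.0 and mm10. The study's methods state that *mGFP* and *hARtg* sequences were added to the genome, that droplets without a cell, droplets with several and cells with much mitochondrial RNA were removed, and that Seurat was used. Labels and methods name different versions of the 3′ kit, and no removal of free RNA is stated. The values deposited by the authors are natural logs, ln(1 + x), where x is the UMI count of the gene scaled to 10000 UMIs per cell, although raw counts or means had been foreseen. Whole UMIs were recovered for all 11120281 values above 0 (tolerance 0.05, largest distance 9.4e-07). The table was held in part, 9784 gene rows by 14573 cells. A partly filled row and 2 rows sharing a name were left out, as were 97 cells of set 3 with under 200 genes. The rows hold 52.7%, 50.4% and 49.4% of the UMIs of sets 1, 2 and 3, and rates use all UMIs. Sets 1 and 2 shared 1 barcode, and sets 2 and 3 shared 13. Scrublet (scanpy 1.11.5) marked 3, 0 and 0 cells, and none was removed.

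The sets were integrated in Seurat 5.3.0 (R 4.3.3; 20 dimensions, 2000 features without the 46 genes and *EGFP*, cell cycle regression, 30 principal components, resolution 0.5). A cluster took a class name with at least 3 markers carried (in at least 10% of cells, at least 2 times the median cluster) and no other class with more markers among its top 10 genes. Cells with at least 3 UMIs of *Myod1*, *Myf5* and *Myog* (18, 1 and 0 per set) or over 5% haemoglobin UMIs (1, 2 and 4) were set apart, a choice made after seeing the data.

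Rates are summed UMIs per 1000000 with exact Poisson intervals. Intervals of log2 ratios are exact and come from the split of UMIs between classes (binomial), with sums under 3 UMIs set to 3. Shares have Clopper-Pearson intervals, and a share of 0 is given with that of 3 cells. Genes named were the restricted paralogs and their partners, the 5 genes with the highest rates, those past 2-fold in every set, the 3 highest and 3 lowest median ratios in both main comparisons, and related genes past 2-fold; *Suclg1*, *Cs*, the genes listed with their correlations, and *Cox6a1* and *Atp5k* (promoters) were chosen after their values were seen. Members and lists were chosen with earlier results of these data known. Positions come from RefSeq (46 of 46 genes matched, 2 by synonym). The steps were tested on simulated data. A gene among the 46 that the rule would name counts in sums and totals but is not reported here by itself.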

Additional observations from a re-analysis of the deposited data

Results flagged for a closer look

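*Ndufa4l2* in epithelium-like over fibroblast-like cells had log2 ratios of opposite sign in 2 barcode sets, with intervals that excluded 0: 2.61 in set 1 and -2.29 in set 3. The difference between the sets was not tested. Set 1 had 1 library, deeper cells (median 44688 UMIs in epithelium-like cells against 3556 in set 3) and another make-up of epithelial clusters, and the part of these in the difference was not tested. Within cluster 4 alone the rates were 215 CPM in set 1 and 0.220 in set 3, beside 30.3 and 11.2 in fibroblast-like cells of the same sets. Cluster 5 stood at 87.1 CPM in set 1 and 7.47 in set 3, where it held 33 of the 38 epithelium-like UMIs. The size of the set 3 ratio depended on the processing. Classing cells one by one moved it to -5.73 (-6.32 as observed, over 2 and 42 UMIs). Keeping only cells of 500 or more genes moved it to -5.42 (-6.00 as observed, over 2 and 13 UMIs).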

How the results depend on the processing

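No paired analysis was possible because there was 1 library to a group and no result came from a test. Over the sums and counts of both main comparisons, 138 alternative values were computed, of which 87 stayed within the interval or count limit of the reported value, 51 moved and 0 reversed. The sum of epithelium-like over fibroblast-like cells (0.22, 0.54 and 0.77 in sets 1, 2 and 3) was 0.14, 0.13 and 0.37 at resolution 1.0, 0.43 and 0.52 (sets 2 and 3) without integration, 0.27 and 0.59 (sets 1 and 2) with each cell classed by its own markers, 0.28 and 0.52 (sets 2 and 3) with at least 500 genes per cell, 0.29, 0.59 and 0.82 over the UMIs of the rows held, 0.18, 0.58 and 0.72 thinned to 900 UMIs, and 0.24, 0.62 and 0.83 without cluster 5. It was 0.25 in set 1 with myogenic and haemoglobin-rich cells kept, 0.32 in set 1 with cluster 10 counted as epithelium-like, 0.73 in set 3 as a mean over cells and 0.74 in set 3 without the 3 top genes. The sum of smooth muscle-like over fibroblast-like cells (0.30, 1.06 and 1.27) was 0.38, 0.66 and 0.80 at resolution 1.0, 0.65 in set 1 without integration (5 smooth muscle-like cells), 0.77 and 1.14 (sets 1 and 2) with each cell classed by its own markers, 0.45, 0.56 and 0.80 with at least 500 genes per cell, 0.33, 1.09 and 1.35 over the UMIs of the rows held, 0.27 and 1.12 (sets 1 and 2) as a mean over cells, 0.39 and 1.14 (sets 1 and 2) thinned, 1.03 and 1.22 (sets 2 and 3) without the 3 top genes and 1.29 in set 3 without the highest doublet scores. The count of genes 2-fold higher in every set in epithelium-like cells (0) was 1 when thinned, 1 with cluster 10 added and 3 without set 1, and the count lower (1) was 0 when thinned, where *Cox6b2* had 1 and 16 UMIs in set 1, short of the minimum of 20, and 2 with no minimum of UMIs. In smooth muscle-like cells the count higher (0) was 16 without integration (5 with sums under 3 UMIs left as observed), 7 with cells classed one by one, 1 with at least 500 genes, 1 when thinned and 24 without set 1. The alternatives on set 1, sums under 3 UMIs, cluster 5, cluster 10 and the cells set apart were chosen after seeing the data. The cause of these shifts was not tested. Leaving out the mitotic cluster changed nothing, since it lay outside the classes.

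Of 676 alternative values for single genes, 463 stayed within their interval, 200 moved and 13 reversed. In epithelium-like over fibroblast-like cells at resolution 1.0, *Atp5d* (-0.13) and *Ndufa4* (-0.15) reversed in set 2 and *Ndufa5* (-0.18) in set 3, and *Cox4i2* gave 0.64 in set 1 when thinned, where its single epithelium-like UMI was set to 3 and the observed ratio was -0.95. In smooth muscle-like over fibroblast-like cells of set 1, *Cox4i2* gave 0.87 when thinned (4 and 5 UMIs), *Ndufa4l2* gave 1.94 with cells classed one by one (15 UMIs in 11 cells) and, without integration, *Cox4i2* gave 3.66 and *Ndufa4l2* 3.39, both over 0 UMIs in 5 smooth muscle-like cells set to 3, so that neither is a measured ratio. *Ndufa4* gave -0.01 there, over 3 UMIs, and *Sdhc* gave -0.10 at resolution 1.0. In set 3 *Cox4i2* gave 0.44 at resolution 1.0 and 0.28 with at least 500 genes, where *Ndufa4l2* gave 0.34. In set 2, 27 pericyte-like cells held 12 UMIs of *Ndufa4l2* and 5 of *Cox4i2*.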

Other observations

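Outside the named classes, the mitotic cluster 9 gave a respiratory chain sum of 0.872%, 0.890% and 0.881% of UMIs in sets 1, 2 and 3, between the fibroblast-like and smooth muscle-like values of sets 2 and 3. The unnamed cluster 10 gave 1.21%, 0.827% and 0.826%. The 18 myogenic cells of set 1, which were set apart by *Myod1*, *Myf5* and *Myog*, gave 1.10%, with 0 UMIs of *Ndufa4l2* and of the muscle isoform *Cox7a1*, and 1 UMI of *Cox8b*.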
